A study of Mus musculus with 6 samples.

Results

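Alternative activation and tissue residence of macrophages were followed through 9 genes, *Arg1*, *Mrc1*, *Chil3*, *Retnla*, *Mgl2*, *Folr2*, *Lyve1*, *Cd163* and *Pdcd1lg2*, taken by symbol from the 25701 genes of the deposited count table. Each was compared between MCT2 KO and MCT2 CO tumor-associated macrophages, with 3 libraries per group. All mice, on a C57BL/6 background, carried floxed alleles of MCT2 (*Slc16a7*, a monocarboxylate transporter for lactate, pyruvate and ketone bodies) and a tamoxifen-inducible Cre transgene that is active throughout the body. MCT2 KO mice received tamoxifen at an age of 8 weeks and MCT2 CO mice received vehicle, so the deletion and tamoxifen itself cannot be told apart. TC1 cells, a mouse lung epithelial tumor line, were then injected under the skin of the flank, and after 24 days CD11b+ cells were pulled from the digested tumor with magnetic beads and sequenced in bulk. MCT2 KO replicates 1, 2 and 3 are the libraries labelled T2, T3 and T5.

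Macrophages exposed to IL-4 or IL-13 enter a state called alternative activation, in which the receptor activates the transcription factor STAT6 and genes for arginase, lectins and secreted proteins are switched on. A separate gene set, with the folate receptor *Folr2*, the hyaluronan receptor *Lyve1* and the hemoglobin scavenger receptor *Cd163*, is known from long-lived macrophages that lie along vessels and in connective tissue. The 2 sets share markers such as *Mrc1*, and both have been described in macrophages of solid tumors.

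STAT proteins bind palindromes that begin with TTC and end with GAA. A spacer of 4 bases between these ends is the form preferred by STAT6, whereas a spacer of 3 is bound by most STATs. RefSeq promoters (GRCm38.p6) were found for 7 of the 9 genes and were searched for both forms over the 250 bases before the start site. Either form reads the same on both strands. *Retnla* and *Pdcd1lg2* held the form with 4 spacer bases once each, *Chil3* held the form with 3 once, and neither was found in the windows of *Mrc1*, *Mgl2*, *Cd163* and *Folr2*. Among all 32851 promoters searched over the same length, 5.85% held the form with 4 spacer bases and 7.02% the form with 3. The 3 promoters with a match are shown because these genes are known products of alternative activation that were ordered differently across the libraries. They lie at chr16:48842359-48842550 on the plus strand for *Retnla* (stopped where the annotated gene begins), chr19:29410669-29410918 on the plus strand for *Pdcd1lg2* and chr3:106167565-106167814 on the minus strand for *Chil3*. Capitals mark the match, which begins 145, 82 and 172 bases before the RefSeq start.
Retnla: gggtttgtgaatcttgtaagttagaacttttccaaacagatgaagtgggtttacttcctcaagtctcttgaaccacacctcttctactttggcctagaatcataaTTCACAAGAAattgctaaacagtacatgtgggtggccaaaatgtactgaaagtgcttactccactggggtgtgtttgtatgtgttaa
Pdcd1lg2: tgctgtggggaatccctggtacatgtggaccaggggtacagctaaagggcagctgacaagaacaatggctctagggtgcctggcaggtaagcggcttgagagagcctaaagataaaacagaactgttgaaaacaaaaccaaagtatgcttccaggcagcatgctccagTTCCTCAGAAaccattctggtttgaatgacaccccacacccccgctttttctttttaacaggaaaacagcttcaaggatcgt
Chil3: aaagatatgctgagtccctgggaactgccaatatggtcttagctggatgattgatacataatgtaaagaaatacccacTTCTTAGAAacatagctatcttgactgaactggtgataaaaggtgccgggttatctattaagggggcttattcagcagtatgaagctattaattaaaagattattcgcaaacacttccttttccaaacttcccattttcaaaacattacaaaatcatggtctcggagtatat

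The libraries held 24863611 to 31713704 counted reads. *Slc16a7*, the targeted gene, was at 16.0, 11.0 and 11.2 CPM (counts-per-million, scaled by the TMM method) in MCT2 CO and at 8.22, 4.97 and 5.34 CPM in MCT2 KO. The groups did not overlap, and the log2 fold change was -1.05 ± 0.24 (SE; edgeR quasi-likelihood test, Benjamini-Hochberg adjusted p = 0.370). MCT2 KO replicate 2 and MCT2 CO replicate 3 stood apart from the other libraries on the first 2 principal components, so results that rest on them are given with and without them. The summed CPM of 12 pan-macrophage markers was 7938 to 12024 in MCT2 CO and 8650 to 16509 in MCT2 KO. Of these markers, 11 were tested and 11 had a log2 fold change above 0, with a median of 0.27. *Itgam*, which encodes CD11b, had 1 count in all, but its span overlaps that of *Gm49368* (356 counts) on the same strand, so reads shared by both genes may have been left out and the value does not check the selection by that protein. In bulk samples, fewer cells of a type and less RNA per cell cannot be told apart.

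None of the 9 genes passed the test between the groups (edgeR quasi-likelihood test, Benjamini-Hochberg adjusted p under 0.05 and absolute log2 fold change of at least 0.58). The background was 0% of the 13485 genes tested, so the test made no call anywhere at these thresholds. All 9 genes had passed the filter on low counts. The point estimates were higher in MCT2 KO for 8 genes and lower for *Lyve1*, with a median log2 fold change of 0.44, beside 0.00037 over all genes tested, of which 6753 were higher and 6732 lower. At an unadjusted edgeR p under 0.05, 3 of the 9 genes were higher (*Arg1*, *Chil3* and *Folr2*; background 3.77% of all genes) and *Lyve1* was lower (background 5.6%). DESeq2 called none of the 9 and 0.705% of all genes. Groups did not overlap for *Arg1*, higher in MCT2 KO (background 7.07%), and for *Lyve1*, lower (background 8.77%).

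**Figure D1:**
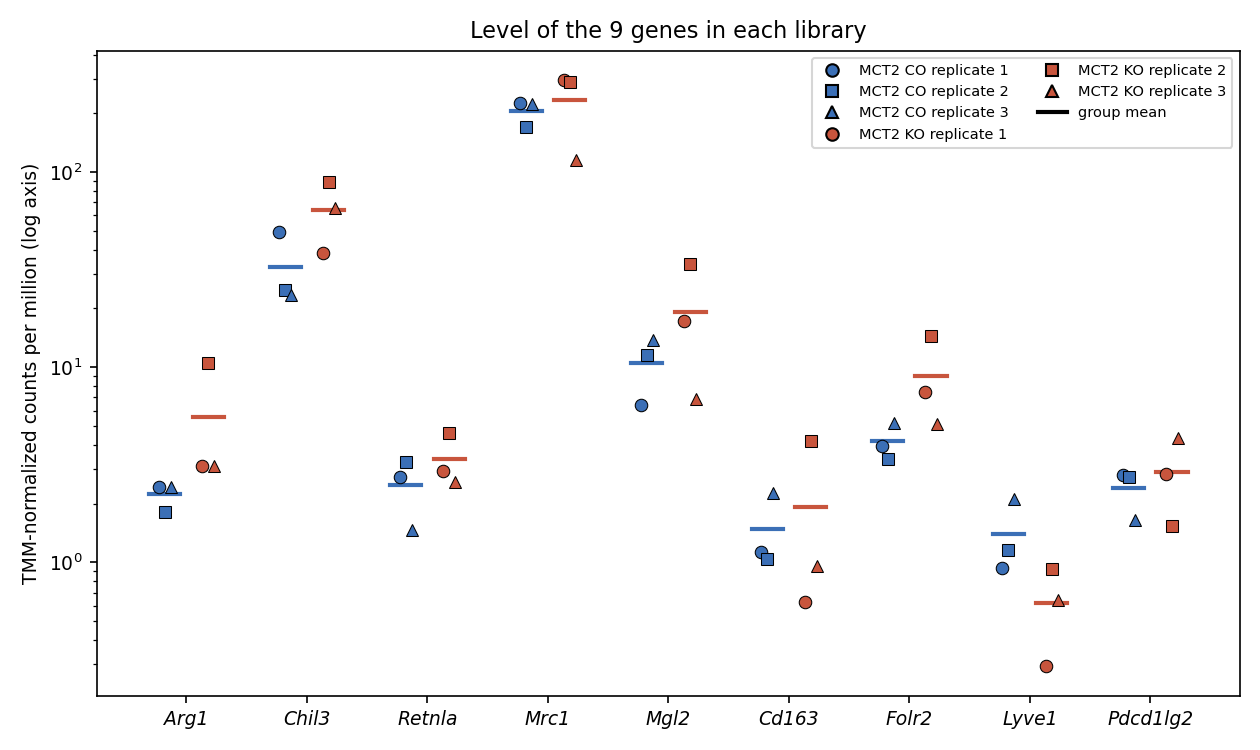
TMM-normalized CPM of the 9 genes in each library on a log axis, with MCT2 CO in blue, MCT2 KO in red, a symbol for each replicate number and a bar for the group mean. The red square (MCT2 KO replicate 2) is the highest point for 6 genes, reaching 10.5 CPM for *Arg1* and 33.8 CPM for *Mgl2*, while *Lyve1* is the gene whose red points all lie under the blue ones.

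*Arg1* encodes arginase 1, which turns arginine into ornithine and urea. It was at 2.43, 1.81 and 2.45 CPM in MCT2 CO and at 3.10, 10.5 and 3.13 CPM in MCT2 KO, from 47 to 73 and from 74 to 343 reads. All MCT2 KO libraries were above all MCT2 CO libraries, but replicates 1 and 3 sat close to them and replicate 2 stood far above. The group means were 2.23 ± 0.37 and 5.59 ± 4.28 CPM (SD, n = 3 each), a log2 fold change of 1.34 ± 0.49 (95% interval 0.22 to 2.45, edgeR adjusted p = 0.489). An exact two-sided permutation test gave p = 0.1, the smallest that 3 against 3 allows. Without MCT2 KO replicate 2 the log2 fold change was 0.48 (edgeR adjusted p = 0.460), and when libraries were scaled to the pan-macrophage markers the groups overlapped, with 2.00 CPM in MCT2 KO replicate 1 against 2.05 to 3.29 CPM in MCT2 CO. *Arg1* (GRCm38 chromosome 10, 24915221 to 24927484, minus strand) has 7 exons after merging its transcripts.

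*Chil3* encodes the secreted chitinase-like protein Ym1, and was the most abundant per kilobase of exon of the 3 genes for arginase and secreted proteins. It was at 49.4, 24.7 and 23.4 CPM in MCT2 CO and at 38.6, 88.4 and 65.4 CPM in MCT2 KO. MCT2 CO replicate 1 lay above MCT2 KO replicate 1, so the groups overlapped. The means were 32.5 ± 14.6 and 64.1 ± 24.9 CPM (SD, n = 3 each), with a log2 fold change of 0.98 ± 0.36 (interval 0.15 to 1.81, edgeR adjusted p = 0.491) and an exact permutation p of 0.2. It was 0.67 without MCT2 KO replicate 2 and 0.79 without MCT2 CO replicate 3. *Chil3* lies at chromosome 3, 106147554 to 106167564 (minus strand), and its close copy *Chil4* had 0 counts in every library.

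*Chil3* is also expressed by alveolar macrophages, monocytes and neutrophils, and the labels give the tissue as lung although the tumors grew in the flank. The other 9 alveolar macrophage markers summed to 1.69 to 2.90 CPM in MCT2 CO and 4.26 to 5.46 CPM in MCT2 KO, with *Ear1*, *Krt79* and *Fabp1* under 10 counts in all and *Siglecf* at 0.263 to 0.706 CPM. Neutrophil markers summed to 114 to 133 CPM and 123 to 218 CPM, and 9 of the 10 tested were higher in MCT2 KO with a median log2 fold change of 1.19, while *Ly6g* had 8 counts in all. Of the neutrophil markers, 6 were higher without overlap and DESeq2 called 5 higher. Over the 6 libraries, 61.9% of the neutrophil sum was *Csf3r*. Without *Csf3r* the sums were 98.3, 81.8 and 39.1 CPM in MCT2 KO and at most 61.9 CPM in MCT2 CO. The sum was highest in MCT2 KO replicate 1, with the least *Chil3* of the MCT2 KO libraries, both with and without *Csf3r*. MCT2 KO replicate 2, with the most *Chil3*, was inside the MCT2 CO range with *Csf3r* and above it without. The part of these cells in the *Chil3* values was not tested.

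*Retnla* encodes the secreted protein RELM-alpha (Fizz1). It was at 2.74, 3.27 and 1.47 CPM in MCT2 CO and 2.93, 4.60 and 2.57 CPM in MCT2 KO, and 2 of the 3 MCT2 KO libraries lay inside the MCT2 CO range. The log2 fold change was 0.44 ± 0.34 (interval -0.34 to 1.23, edgeR adjusted p = 0.711; exact permutation p = 0.5). It came to 0.14 without MCT2 KO replicate 2 and 0.18 without MCT2 CO replicate 3, and was -0.12 with both left out. The gene lies at chromosome 16, 48842551 to 48844461 (plus strand).

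*Mrc1* encodes the mannose receptor CD206, an endocytic lectin. It was the most abundant of the 9 per kilobase of exon, at 225, 169 and 224 CPM in MCT2 CO and at 296, 289 and 115 CPM in MCT2 KO. The MCT2 KO libraries held both the 2 highest values and the lowest one. The means were 206 ± 31.8 and 233 ± 102 CPM (SD, n = 3 each), with a log2 fold change of 0.18 ± 0.32 (interval -0.56 to 0.92, edgeR adjusted p = 0.885; exact permutation p = 1.0). The estimate was 0.51 without MCT2 KO replicate 3, -0.01 without replicate 1 and -0.05 with scaling to macrophage markers, and so had no settled direction. *Mrc1* lies at chromosome 2, 14229392 to 14332057 (plus strand).

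*Mgl2* encodes the galactose-type lectin CD301b, found on macrophages and a dendritic cell subset. It was at 6.37, 11.6 and 13.7 CPM in MCT2 CO and 17.2, 33.8 and 6.87 CPM in MCT2 KO. The 2 highest values were from MCT2 KO, and MCT2 KO replicate 3 was close to the lowest library, MCT2 CO replicate 1. The log2 fold change was 0.88 ± 0.52 (interval -0.31 to 2.07, edgeR adjusted p = 0.631; exact permutation p = 0.4), and 0.19 without MCT2 KO replicate 2. Its neighbouring paralog *Clec10a* was at 2.90 to 6.89 CPM in MCT2 CO and 4.26 to 7.58 CPM in MCT2 KO, with a log2 fold change of 0.19. *Mgl2* lies at chromosome 11, 70130329 to 70137550 (plus strand).

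*Cd163* encodes the scavenger receptor for hemoglobin bound to haptoglobin. It was at 1.13, 1.04 and 2.26 CPM in MCT2 CO and 0.629, 4.21 and 0.964 CPM in MCT2 KO. MCT2 KO replicate 2 was the highest of all libraries, whereas replicates 1 and 3 were the 2 lowest. With 15 to 137 reads per library, counting error alone gave an interval of 0.352 to 1.04 CPM for MCT2 KO replicate 1 and 3.53 to 4.97 CPM for replicate 2 (exact Poisson, 95%). The log2 fold change was 0.43 ± 0.67 (interval -1.13 to 1.98, edgeR adjusted p = 0.866; exact permutation p = 1.0) and turned to -0.88 without MCT2 KO replicate 2 (edgeR adjusted p = 0.471). *Cd163* lies at chromosome 6, 124304656 to 124330527 (plus strand).

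*Folr2* encodes folate receptor beta. It was at 3.94, 3.38 and 5.19 CPM in MCT2 CO and at 7.46, 14.4 and 5.10 CPM in MCT2 KO. Replicates 1 and 2 of MCT2 KO lay above all MCT2 CO libraries, and replicate 3 lay just under MCT2 CO replicate 3. The means were 4.17 ± 0.93 and 8.99 ± 4.83 CPM (SD, n = 3 each), giving a log2 fold change of 1.11 ± 0.37 (interval 0.26 to 1.96, edgeR adjusted p = 0.444; exact permutation p = 0.2). *Folr2* had the lowest adjusted p of the 9 genes under DESeq2 as well (adjusted p = 0.101). Its log2 fold change was 0.59 without MCT2 KO replicate 2. *Folr2* lies at chromosome 7, 101839988 to 101857194 (minus strand).

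*Lyve1* encodes a hyaluronan receptor found on lymphatic endothelium and on macrophages around vessels. It was at 0.934, 1.15 and 2.11 CPM in MCT2 CO and at 0.293, 0.921 and 0.643 CPM in MCT2 KO, from 28 to 56 and from 7 to 30 reads. All MCT2 KO values were below all MCT2 CO values, but the margin between 0.921 and 0.934 CPM was far inside counting error (0.621 to 1.31 CPM and 0.621 to 1.35 CPM, exact Poisson, 95%). The means were 1.40 ± 0.62 and 0.619 ± 0.314 CPM (SD, n = 3 each), a log2 fold change of -1.13 ± 0.46 (interval -2.20 to -0.07, edgeR adjusted p = 0.520; exact permutation p = 0.1). It was -1.56 without MCT2 KO replicate 2 and -0.71 without MCT2 CO replicate 3, and the groups overlapped when libraries were scaled to macrophage markers or by the upper quartile. *Lyve1* lies at chromosome 7, 110850607 to 110863239 (minus strand).

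Lymphatic and blood endothelial markers summed to 258 to 280 CPM in MCT2 CO and 304 to 353 CPM in MCT2 KO over 12 genes, and 62.7% of that sum was *Pdpn*, which fibroblasts and macrophages can also express. Without *Pdpn* the sums overlapped, at 101, 107 and 102 CPM in MCT2 CO and 126, 90.7 and 148 CPM in MCT2 KO, and none of the 8 genes tested was called or free of overlap. Of the markers that define lymphatic endothelium, *Ccl21a* was at 0 in every library, *Prox1* had 4 counts in all, and *Mmrn1* and *Reln* reached 0.301 and 0.640 CPM at most, both in MCT2 CO replicate 3, where *Lyve1* was highest. *Flt4*, which is shared with some blood vessels, was at 2.77 to 3.27 CPM in MCT2 CO and 2.89 to 4.33 CPM in MCT2 KO, and *Pdpn* was at 157 to 179 CPM and 178 to 245 CPM. Fibroblast markers summed to 2085 to 3441 CPM in MCT2 CO and 1759 to 1858 CPM in MCT2 KO, with 53.5% from *Col3a1*, and were also highest in MCT2 CO replicate 3. Without *Col3a1* they overlapped, at 898 to 1414 CPM and 839 to 1053 CPM. Of the 10 fibroblast markers tested, 8 were lower in MCT2 KO and 2 higher. At an unadjusted edgeR p under 0.05, 4 were lower (background 5.6%), and 3 were lower without overlap (background 8.77%). DESeq2 called *Col3a1*, *Dcn* and *Lum* lower (adjusted p = 0.0386, 0.0432 and 0.0237). The part of endothelial cells and fibroblasts in the *Lyve1* values was not tested.

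Both *Lyve1* and *Folr2* mark vessel-associated macrophages, and the ratio of their reads does not depend on how libraries are scaled. It was 0.237, 0.341 and 0.406 in MCT2 CO and 0.0393, 0.0640 and 0.126 in MCT2 KO. The pair was chosen after the values were seen because the signs were opposite, so the ratio restates the values of both genes and carries no test.

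*Pdcd1lg2* encodes PD-L2, a ligand of the inhibitory receptor PD-1. It was at 2.80, 2.73 and 1.66 CPM in MCT2 CO and at 2.85, 1.53 and 4.34 CPM in MCT2 KO. Here MCT2 KO replicate 2, the highest library for *Mgl2* and *Cd163*, was the lowest of all, and replicate 3 was the highest. The log2 fold change was 0.27 ± 0.39 (interval -0.62 to 1.16, edgeR adjusted p = 0.854; exact permutation p = 0.8), and -0.14 without MCT2 KO replicate 3. The other PD-1 ligand, *Cd274* (PD-L1), was at 127, 156 and 86.9 CPM in MCT2 CO and 208, 130 and 289 CPM in MCT2 KO, with the same library highest (log2 fold change 0.76, edgeR adjusted p = 0.506). *Pdcd1lg2* lies at chromosome 19, 29410919 to 29471161 (plus strand).

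**Figure D2:**
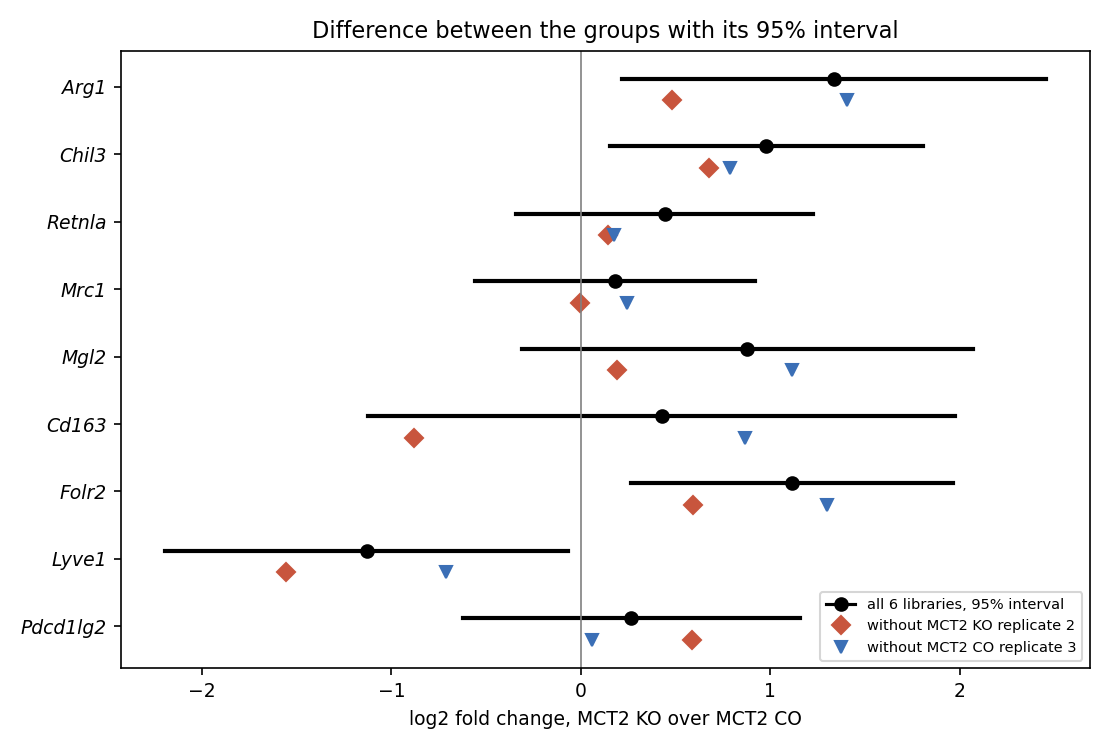
Log2 fold change of MCT2 KO over MCT2 CO for each gene, with black points and lines for all 6 libraries and their 95% intervals (edgeR), red diamonds without MCT2 KO replicate 2 and blue triangles without MCT2 CO replicate 3. *Cd163* moves from 0.43 to -0.88 and *Arg1* from 1.34 to 0.48 when MCT2 KO replicate 2 is left out, whereas *Lyve1* stays below 0 in each case.

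A single library carried much of the difference. MCT2 KO replicate 2 was the highest library for 6 of the 9 genes (*Arg1*, *Chil3*, *Retnla*, *Mgl2*, *Cd163* and *Folr2*), as it was for 20.4% of all genes tested. Against the median of the other 5 libraries it was 4.30 times higher for *Arg1*, 4.05 for *Cd163*, 2.92 for *Mgl2*, 2.82 for *Folr2*, 2.29 for *Chil3* and 1.68 for *Retnla*. *Mrc1* was 1.29 times the median there, *Lyve1* 0.986 times and *Pdcd1lg2* 0.548 times, so these 3 genes were outside that pattern. The mean of MCT2 KO replicates 1 and 3 over the MCT2 CO mean was 1.60 for *Chil3*, 1.51 for *Folr2*, 1.50 for *Pdcd1lg2* and 1.40 for *Arg1*. It was 1.14 for *Mgl2*, 1.11 for *Retnla*, 0.997 for *Mrc1*, 0.539 for *Cd163* and 0.335 for *Lyve1*.

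In the same library B cell markers summed to 24.2 CPM against 81.0 to 110 CPM in the other libraries. T and NK cell markers summed to 39.2 CPM against 54.6 to 117 CPM. Over the 6 libraries, 80.1% of the B cell sum was *Ighm*. Without *Ighm* the B cell sums were 16.6, 4.70 and 14.9 CPM in MCT2 KO and 18.5 to 24.9 CPM in MCT2 CO. Of 7 B cell markers tested, 7 were lower in MCT2 KO, 3 of them without overlap (background 8.77%). DESeq2 called 4 B cell markers lower (0.705% of all genes called). Lower B cell markers were thus not particular to MCT2 KO replicate 2. Pan-macrophage markers were at 8650 CPM in MCT2 KO replicate 2, inside the MCT2 CO range. Its monocyte markers other than *Chil3* had the lowest sum, 1009 CPM. Over the 6 libraries, 57.9% of the monocyte sum was *Nr4a1*. Without *Nr4a1* the sum in MCT2 KO replicate 2 was 446.8 CPM, nearly the same as the 447.2 CPM of MCT2 CO replicate 1. Whether the make-up of the cells in that library has a part in the values of the 6 genes was not tested.

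**Figure D3:**
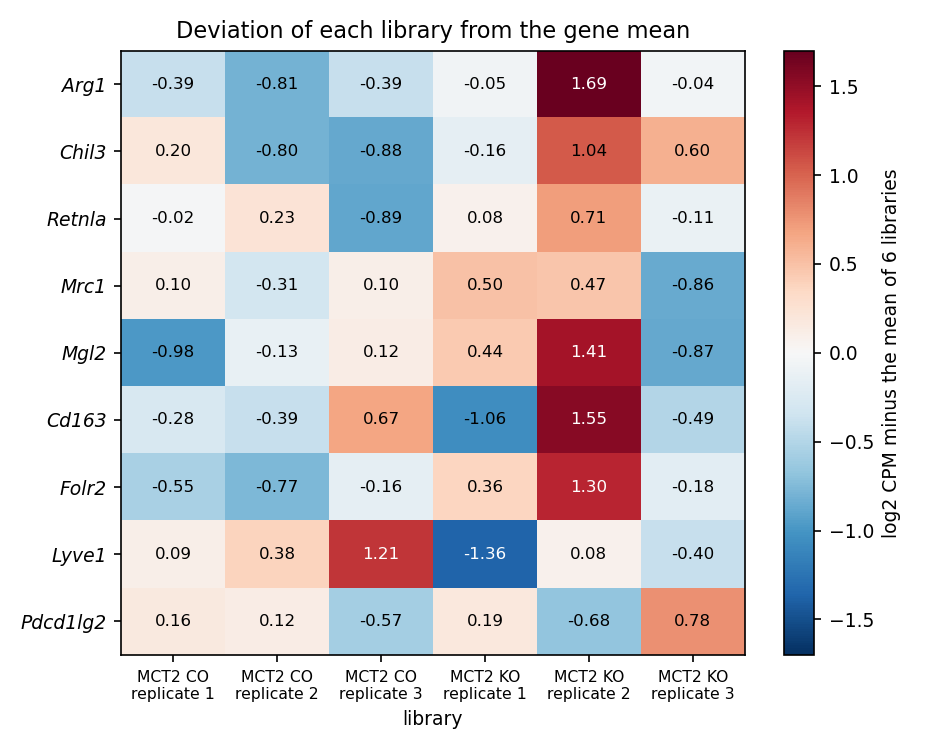
Heat map of log2 CPM minus the mean over the 6 libraries, with genes in rows and libraries in columns. The column of MCT2 KO replicate 2 holds the deepest red, 1.69 for *Arg1* and 1.55 for *Cd163*, while its *Pdcd1lg2* cell is -0.68.

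**Figure D4:**
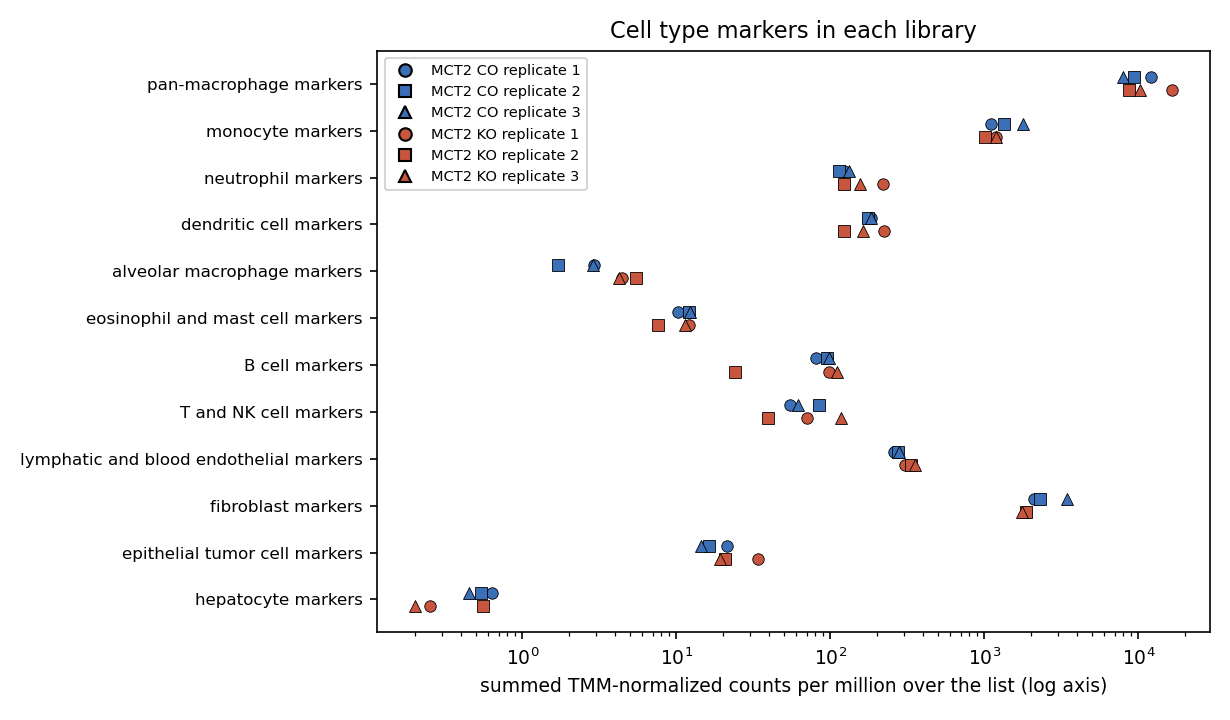
Summed CPM of each cell type marker list in each library on a log axis, leaving out the 9 genes where a list held one, with MCT2 CO in blue and MCT2 KO in red. The fibroblast sums (1759 to 1858 CPM in MCT2 KO) and the endothelial sums (304 to 353 CPM in MCT2 KO) do not overlap between groups but do so without *Col3a1* and *Pdpn*. The B cell sum of MCT2 KO replicate 2 is the lowest of its list at 24.2 CPM, and without *Ighm* all B cell sums of MCT2 KO are below those of MCT2 CO.

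The genes spanned a wide range of abundance. Counts may include intronic reads, so levels per kilobase of exon, and the order they give, are approximate. Per kilobase of merged exon, the mean level over the 6 libraries was 34.5 CPM per kb for *Mrc1*, 29.6 for *Chil3*, 7.13 for *Mgl2*, 4.89 for *Retnla*, 4.26 for *Folr2*, 1.75 for *Arg1*, 1.35 for *Pdcd1lg2*, 0.346 for *Lyve1* and 0.312 for *Cd163*. *Chil3* was above *Mgl2* in 6 of 6 libraries, *Folr2* above *Arg1* in 6 of 6 and *Pdcd1lg2* above *Lyve1* in 6 of 6. The other neighbours exchanged places, with *Mrc1* above *Chil3* in 4 of 6 libraries, *Lyve1* above *Cd163* in 4 of 6 and *Arg1* above *Pdcd1lg2* in 2 of 6. The highest library over the lowest was a factor of 7.18 for *Lyve1*, 6.69 for *Cd163*, 5.82 for *Arg1* and 5.30 for *Mgl2*. It was 4.25 for *Folr2*, 3.77 for *Chil3*, 3.14 for *Retnla*, 2.83 for *Pdcd1lg2* and 2.57 for *Mrc1*. *Lyve1* and *Cd163*, the scarcest, varied most, but spread did not follow abundance throughout. *Pdcd1lg2* was scarcer on average than *Arg1* and *Mgl2* and varied less.

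*Arg1* and *Folr2* had the most similar profiles among the 9, with a root mean square difference of 0.26 between their centred log2 CPM over the 6 libraries. Of the 9528 other genes with a mean of at least 10 CPM, *F13a1* (coagulation factor XIII A, made by macrophages) was nearest to both, at 0.21 from *Arg1* and 0.23 from *Folr2*. *F13a1* was at 28.9, 24.5 and 30.1 CPM in MCT2 CO and 55.3, 130 and 47.8 CPM in MCT2 KO, again with MCT2 KO replicate 2 far above. *Pf4*, a chemokine of platelets and resident macrophages, was the nearest to *Mgl2* (0.28) and the second nearest to *Folr2* (0.23).

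The remaining genes each had a different nearest neighbour. *Pdcd1lg2* was closest to *Ptpn22*, a phosphatase of immune cells, at 0.13, the smallest distance of the 9 genes. *Retnla* was closest to *Sele*, the E-selectin of activated endothelium (0.21), *Cd163* to *Ankrd1* (0.28), *Lyve1* to *Dlx2* (0.32), *Mrc1* to *Fcrl2* (0.22) and *Chil3* to *Cd38* (0.32). The distances describe 6 libraries of which 2 stand apart, and carry no test.

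The wider program was read from lists that also gave no edgeR call. Of 23 other alternative activation genes tested, 20 were higher and 3 lower in MCT2 KO, with a median log2 fold change of 0.47 beside 0.00037 for all genes. At an unadjusted edgeR p under 0.05, 10 were higher (3.77% of all genes), and 9 were higher without overlap (7.07% of all genes). DESeq2 called 4 of them higher: *Slc7a2* (arginine transporter, 0.88), *Plxdc1* (0.82), *Mmp12* (macrophage elastase, 0.93) and *Retnlg* (2.35), where values are edgeR log2 fold changes. *F13a1* had a log2 fold change of 1.48 and was not called by DESeq2 (adjusted p = 0.0941). *Retnlg*, a relative of *Retnla*, is a neutrophil gene. Among the 17 that were in no marker list of another cell type, 15 were higher and the median was 0.47. The pan-macrophage markers leaned the same way, with 11 of 11 tested higher and a median of 0.27. A lean in sign was therefore not particular to alternative activation genes. Among those 11 markers, 1 was higher at an unadjusted edgeR p under 0.05, 0 were free of overlap and DESeq2 called 0.

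Genes upstream of the 9 did not lean higher. Of 14 tested genes for IL-4 and IL-13 receptor signaling, 7 were higher and 7 lower, with a median of 0.00139. *Stat6* was at 127 to 161 CPM in MCT2 CO and 147 to 187 CPM in MCT2 KO (log2 fold change 0.23). *Socs1*, an inhibitor of the receptor's kinases, was lower without overlap, at 6.23 to 7.64 CPM in MCT2 CO and 2.27 to 4.49 CPM in MCT2 KO (log2 fold change -0.92, edgeR adjusted p = 0.426). Of 16 transcription factors of alternative activation, 13 were lower and 3 higher, with a median of -0.11, and *Egr2* was at 105 to 157 CPM against 82.6 to 88.5 CPM (log2 fold change -0.52).

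In arginine and polyamine metabolism, 7 genes were higher and 6 lower, with a median of 0.03. *Slc7a2*, which brings in the arginine that *Arg1* uses, was at 9.61, 10.5 and 8.17 CPM in MCT2 CO and 15.8, 22.3 and 13.8 CPM in MCT2 KO. *Nos2*, which makes nitric oxide from the same substrate and is a marker of classical activation, was at 1.27, 2.42 and 0.978 CPM in MCT2 CO and 3.86, 6.66 and 17.8 CPM in MCT2 KO (log2 fold change 2.60). *Slc7a2* and *Nos2* were the 2 genes of this list that DESeq2 called higher (adjusted p = 0.00908 and 0.0480). *Nos2* was highest in MCT2 KO replicate 3, whereas *Arg1* was highest in replicate 2. Reads of *Arg1* over those of *Nos2* were 1.92, 0.746 and 2.50 in MCT2 CO and 0.804, 1.58 and 0.176 in MCT2 KO, so the ratio overlapped.

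Other resident macrophage genes were mixed, 12 higher and 7 lower of 19 tested, with a median of 0.12. *Pf4* had a log2 fold change of 1.04 and *Timd4*, a receptor for dying cells, one of -0.73. Of 13 genes for IL-10 signaling and glucocorticoid targets, the inputs known to raise *Cd163* and *Mrc1*, 9 were higher and 4 lower with a median of 0.08, and none had an unadjusted edgeR p under 0.05. Of a list of 4 genes around PD-1, 3 had a log2 fold change above 0. These were *Pdcd1*, which encodes PD-1 (0.55), *Cd274* (0.76) and *Cd80*, which was nearly unchanged (0.014). The other, *Rgmb*, was at -0.11, and the groups overlapped for all 4.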

How the data were processed

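The authors sequenced polyadenylated RNA with a strand-preserving kit. Per the labels, reads were checked with FastQC 0.12.0 and MultiQC 1.28, aligned to GRCm38 with STAR 2.7.11b and counted with featureCounts 2.1.1, and the deposited table holds whole-number counts per gene. Lengths in that table equal each gene's whole span, so intronic reads may be counted. Its starts matched GENCODE M21 for 2.22% of genes, and positions given here are those of GENCODE M21. The members and lists were chosen with earlier results of these data known. Counts were compared in R 4.3.3 with edgeR 4.0.16 (TMM, filterByExpr with a minimum count of 10, quasi-likelihood test, all 6 libraries, no covariate) with Benjamini-Hochberg adjustment over 13485 genes; a gene was called at adjusted p under 0.05 and absolute log2 fold change of at least 0.58. DESeq2 1.42.0 (the tool of the authors, who used version 1.18.1), limma 3.58.1 (voom), other scalings and filters, a replicate block and leaving out libraries were alternatives. The 9 genes were named by membership. The nearest profiles were the 2 with the smallest root mean square difference, and genes named from a list were up to 4 with the lowest p at a mean of at least 1 CPM, or those called. Marker genes, *Itgam*, *Gm49368* and *Mmp12* were named after their values were seen. Libraries are from separate mice as far as the labels tell, and p-values measure the spread between these samples. No 2 libraries of a group agreed within sampling noise (chi-square per degree of freedom 15.7 to 79.2). Poisson intervals cover counting error only. On simulated data, 99.5% of 200 changed genes with an absolute log2 fold change of 2 were recovered among 13397 genes, and 5.69% of calls were false. The changed genes were drawn from those with a mean above 5 CPM, and no simulated library stood apart. *Retnla*, *Cd163*, *Lyve1* and *Pdcd1lg2* had means below that level in both groups, and every estimate for the 9 genes was smaller than 2. The share recovered therefore does not give the power for the 9 genes.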

Additional observations from a re-analysis of the deposited data

How the results depend on the processing

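The 9 genes gave 0 calls under every alternative run, and their lowest adjusted p was 0.101 for *Folr2* (DESeq2). The count of genes called over the whole table was 0 with edgeR, 79 with DESeq2 on the same genes, 95 with DESeq2 on all genes with a count, 29 with scaling to macrophage markers, 2 with no filter on low counts, 0 to 2 with 1 library left out (2 without MCT2 KO replicate 2) and 10 with both MCT2 KO replicate 2 and MCT2 CO replicate 3 left out, an alternative chosen after seeing the data. Scaling to macrophage markers moved the median log2 fold change of all genes to -0.20. Non-overlap held for 2 of the 9 genes (background 7.07% higher and 8.77% lower), 1 under upper-quartile scaling and 0 under macrophage marker scaling. With 1 library left out, also added after seeing the data, it held for 2 to 5. It was 4 without MCT2 KO replicate 2 and 5 without MCT2 KO replicate 3, where 31.7% and 22.0% of all genes did not overlap. Without MCT2 CO replicates 1, 2 and 3 it was 3, 2 and 3, beside 28.5%, 24.4% and 22.1% of all genes. Without MCT2 KO replicate 1 it was 3, beside 28.3%. *Arg1*, *Chil3*, *Mgl2* and *Folr2* stayed above 0 and *Lyve1* below 0 in every fit, at 0.48 to 1.63, 0.48 to 1.42, 0.19 to 1.29, 0.59 to 1.40 and -1.56 to -0.71. The CPM filter removed *Lyve1*, which has no value there. Signs turned for *Mrc1* (-0.052 with macrophage marker scaling, -0.015 to 0.51 with 1 library left out), *Cd163* (-0.88 to 0.87 with 1 left out, -0.44 with both left out), *Retnla* (-0.12 with both left out) and *Pdcd1lg2* (-0.14 to 0.58 with 1 left out), and the cause was not tested. *Slc16a7* passed under DESeq2 (adjusted p = 0.00953 and 0.00862). Replicate numbers do not pair the samples (correlations of same-numbered deviations 0.216, -0.247 and -0.161), and a fit with the replicate block called 0 genes and gave *Arg1* a log2 fold change of 1.08. Members with few reads, *Lyve1* and *Cd163*, are limited by counting error.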
